A study of Mus musculus with 6 samples.

Results

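The DEAD- and DEAH-box RNA helicases are proteins that use ATP to open RNA duplexes or to strip proteins from RNA, and are named after amino acid motifs in their shared helicase core. All protein-coding genes of the deposited table with a symbol of Ddx or Dhx followed by a digit were taken, except Ddx58 and Dhx58, which sense viral RNA. That rule gave 51 of the 51912 rows, 36 of them Ddx and 15 of them Dhx genes. Of these, 46 had a mean of at least 1 TPM over the 6 libraries, 32 Ddx and 14 Dhx genes, and were tested. The family was picked with results of the same comparison in view, so its fold changes and counts are a description and support nothing by themselves. Just inside the limit of 1 TPM lay Dhx34, with a mean of 1.06 TPM, and Ddx55, with 1.08 TPM, and just outside it Dhx35, with 0.982 TPM. The remaining members below the limit were Ddx4, Ddx60, Ddx43 and Ddx25, with means of 0.135, 0.133, 0.0514 and 0.00707 TPM.

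The libraries were bulk RNA-seq of bladder tumor organoids from C57BL/6 mice, which are small 3-dimensional cultures of tumor cells. In 3 libraries the organoids had been treated with SRT1720, a compound known as an activator of SIRT1, an NAD-dependent protein deacetylase, and in the other 3 with vehicle. The title of the study asks about SIRT1 and the hypoxia-inducible factors, and no label names the helicases. The sources used here do not give the dose, the duration, the way the tumors were induced or the number of animals. Whether the replicates of a group were separate cultures is not stated either, so a p-value reflects only how far these libraries differ, which may be technical.

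DEAD-box proteins act locally, prying apart short duplexes without travelling along the strand, whereas DEAH-box proteins move along RNA and pull it out of complexes. Their partners set where they act: many DEAH-box enzymes are switched on by proteins with a glycine-rich G-patch, and several DEAD-box enzymes by proteins with an MIF4G fold. Between them they serve nearly every step in the life of an RNA, including transcription, splicing, export, translation, decay and the assembly of ribosomes in the nucleolus.

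Reads recovered from the deposited values came to 20988796, 21818985 and 21330310 in SRT1720 1, 2 and 3, and to 22837045, 18246651 and 20016851 in Vehicle 1, 2 and 3. The values are called TPM after the deposited table, but each was scaled by gene length and by library depth, so a column does not sum as TPM does. Libraries of the same group were far from alike. The basal keratin Krt5 had 16.4, 616 and 1120 TPM in SRT1720 1, 2 and 3, against 425, 9.61 and 741 TPM in Vehicle 1, 2 and 3. All 8 epithelial markers reached a mean of 1 TPM, with summed levels of 585 to 2160 TPM with SRT1720 and 395 to 1380 TPM with vehicle. Of the leukocyte markers 2 of 8 did so, Cd68 and Lyz2, with sums of 1.04 to 11.5 TPM with SRT1720 and 1.94 to 16.1 TPM with vehicle, and Cd3e was at 0. None of the 6 fibroblast, 5 endothelial and 5 smooth muscle markers reached a mean of 1 TPM. The part of this within-group variation in the values below was not tested.

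No member passed the test. With limma on log2(TPM + 1) and Benjamini-Hochberg adjustment over 9287 genes at a threshold of 0.05, 0 of 46 members and 0% of all genes were called. The smallest adjusted p of a member was 0.132, for Dhx9, and the next was 0.261, for Ddx21. At an unadjusted p under 0.05 there were 14 members, each of them at the higher level with SRT1720, against 12.4% of all genes in either direction, 7.86% at the higher and 4.55% at the lower level. The limma-voom test on recovered reads also called 0 members and put 14 at an unadjusted p under 0.05, against 12.1% of all genes. In the limma test on log2(TPM + 1), leaving out SRT1720 2 brought the count of 14 to 3. Leaving out SRT1720 3 brought it to 8, and leaving out Vehicle 1 or Vehicle 3 to 9. The shares over all genes were then 5.63%, 9.01%, 11.3% and 10.8%.

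The log2 fold change, SRT1720 minus vehicle, lay above 0 in 38 of 46 members and in 54.8% of all genes. Its median was 0.32 over the members and 0.04 over all genes tested. In 21 members all 3 SRT1720 libraries lay above all 3 vehicle libraries, as in 12.1% of all genes, and in 1 member, Ddx50, they all lay below, as in 7.75%. Together these were 22 members, against 19.9% of all genes. With median-of-ratios scaling these counts were 19 and 1 for the members, and the split over all genes was 917 above and 912 below instead of 1125 and 720. Among the 45 members other than Dhx9, 37 lay above 0 and the median was 0.32. Where a level in bulk RNA differs, a smaller share of a cell type and less RNA per cell cannot be told apart.

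**Figure D1:**
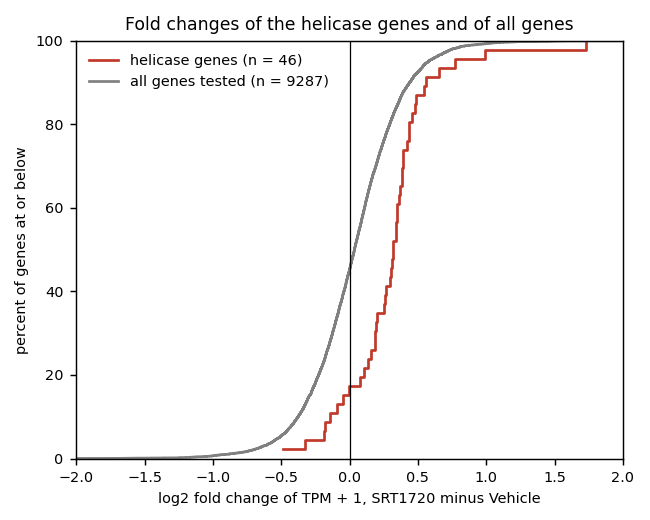
Cumulative share of genes (percent, vertical axis) at or below each log2 fold change of TPM + 1, SRT1720 minus vehicle (horizontal axis), for the 46 tested helicase genes (red) and all 9287 genes tested (grey). The red curve lies to the right of the grey one over most of its length, with medians of 0.32 and 0.04, and 38 of 46 members lie above 0.

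The family's share of the recovered reads was 0.602%, 0.632% and 0.602% in SRT1720 1, 2 and 3, against 0.45%, 0.53% and 0.449% in Vehicle 1, 2 and 3. Leaving Dhx9 out, it was 0.568%, 0.597% and 0.561% with SRT1720 and 0.442%, 0.523% and 0.439% with vehicle. Thus the groups did not overlap in either sum, and Vehicle 2 lay nearest to the SRT1720 libraries. Counted gene by gene, 35, 39 and 35 of the 46 members lay above their own 6-library mean in SRT1720 1, 2 and 3. In Vehicle 1, 2 and 3 these counts were 10, 16 and 7. On the log2(TPM + 1) scale the members' median deviation was 0.151, 0.192 and 0.118 with SRT1720, against 0.065, 0.015 and −0.024 over all genes. With vehicle it was −0.14, −0.071 and −0.165 over the members and 0.009, −0.023 and −0.053 over all genes. SRT1720 1 and Vehicle 2, the libraries lowest in Krt5, had 35 and 16 members above their mean. Whether the Krt5 level plays a part in these counts was not tested. Without SRT1720 1 and Vehicle 2 the members' median log2 fold change was 0.35, and without SRT1720 3 and Vehicle 3 it was 0.33.

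**Figure D2:**
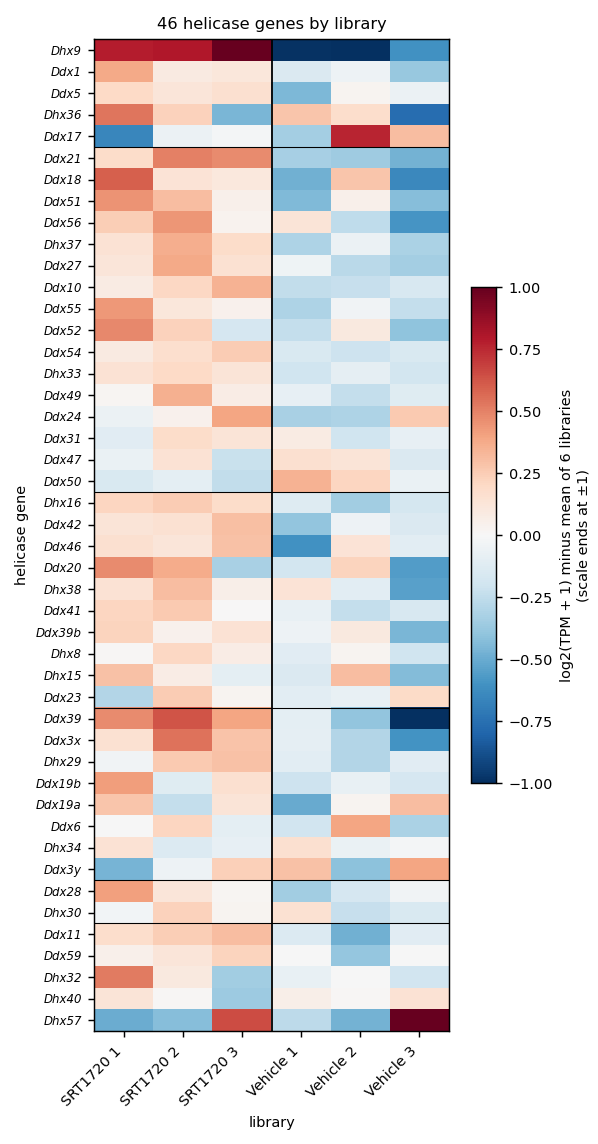
Deviation of each tested member from its own mean over 6 libraries, on the log2(TPM + 1) scale (colour, red above and blue below, cut at 1), with members in rows by role and libraries in columns, SRT1720 left of the line and vehicle right of it. Red prevails in the SRT1720 columns, where 35, 39 and 35 of 46 members lie above their mean. The median deviation in these columns was 0.151, 0.192 and 0.118 over the members and 0.065, 0.015 and −0.024 over all genes. Dhx57, Dhx36 and Ddx20 differ more within groups than between them.

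Among the helicases of transcription and nuclear RNA structure stood the gene with the widest separation of the family. Dhx9, also called RNA helicase A, unwinds double-stranded RNA and RNA-DNA hybrids and bridges transcription factors to RNA polymerase II. Dhx9 (ENSMUSG00000042699, minus strand of chromosome 1, 153455758 to 153487660 on GRCm38) had 9.23, 9.34 and 11.0 TPM with SRT1720, against 2.0, 1.96 and 2.91 TPM with vehicle. Behind these Dhx9 values stood 7189, 7583 and 8721 recovered reads with SRT1720 and 1694, 1328 and 2159 with vehicle. The lowest SRT1720 library thus lay far above the highest vehicle library. The Dhx9 means were 9.86 ± 0.986 TPM with SRT1720 and 2.29 ± 0.54 TPM with vehicle (SD, n = 3 each), a ratio of 4.31. Its log2 fold change was 1.73 with a standard error of 0.17, and its adjusted p by limma was 0.132. An exact two-sided permutation test gave p = 0.1 for Dhx9, the smallest that 3 libraries against 3 allow. Earlier results of these same data had already shown Dhx9 with the smallest p of the family, so these p-values support nothing by themselves. No other gene's transcript matched that of Dhx9 at 95% identity or more over at least 200 bases, and no other gene's exons overlapped its own.

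The 250 bases upstream of the Dhx9 start (chr1:153487661-153487910, minus strand, RefSeq, GRCm38.p6) are shown because Dhx9 had the largest fold change of the family. Capitals mark the ETS-type core CCGGAAG and, at 2 places, the reverse complement CCGCCC of the motif known as the GC box.
Dhx9: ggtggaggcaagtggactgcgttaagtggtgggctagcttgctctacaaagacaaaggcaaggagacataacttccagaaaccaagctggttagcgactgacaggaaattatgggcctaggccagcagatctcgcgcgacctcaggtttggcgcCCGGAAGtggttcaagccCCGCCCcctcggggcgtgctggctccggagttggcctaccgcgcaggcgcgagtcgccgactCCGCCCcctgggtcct

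The other members of this role were Ddx5 and Ddx17, which are close relatives and act as transcription coregulators and in microRNA processing, Ddx1, a subunit of the tRNA ligase complex, and Dhx36, which unwinds G-quadruplexes. Ddx5 had 32.1, 30.5 and 31.3 TPM with SRT1720 and 20.2, 28.5 and 26.7 TPM with vehicle. The Ddx5 libraries did not overlap, and the vehicle ones spread far more than the SRT1720 ones, with means of 31.3 ± 0.803 TPM with SRT1720 and 25.1 ± 4.40 TPM with vehicle (SD, n = 3 each). The Ddx5 log2 fold change was 0.32, and 0.18 without Vehicle 1. Its relative Ddx17 had 16.8, 25.8 and 26.5 TPM with SRT1720 and 21.1, 46.2 and 33.5 TPM with vehicle. Ddx17 thus overlapped between groups and had the lowest log2 fold change of the family, −0.48 with a standard error of 0.33. That value rested on single libraries: the Ddx17 log2 fold change was −0.23 without Vehicle 2, −0.28 without SRT1720 1, −0.02 without both, and −0.77 without Vehicle 1. Ddx1 averaged 11.1 ± 1.38 TPM with SRT1720, against 8.27 ± 1.03 TPM with vehicle, without overlap.

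**Figure D3:**
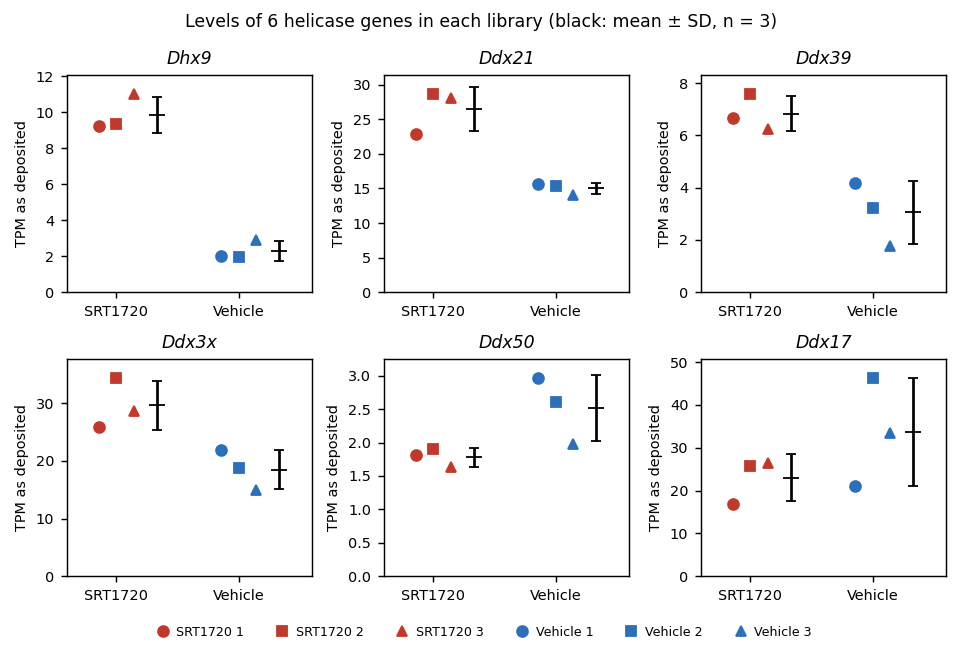
Level of 6 helicase genes (TPM as deposited, vertical axes starting at 0) in each SRT1720 library (red) and each vehicle library (blue), with marker shapes for replicates 1, 2 and 3 and black bars for mean ± SD (n = 3). Dhx9, Ddx21, Ddx39 and Ddx3x lie higher in all SRT1720 libraries, Ddx50 lies lower in all of them, and Ddx17 overlaps.

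Helicases of ribosome biogenesis, which work in the nucleolus on the precursors of ribosomal RNA, formed the largest role with 16 members, all of them tested. Their log2 fold change lay above 0 in 14 of 16, with a median of 0.38. In 9 of the 16 the SRT1720 libraries lay above all vehicle libraries, in 1 below, and 8 had an unadjusted p under 0.05. Over all genes these shares were 12.1%, 7.75% and 12.4%. None passed the adjusted threshold.

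Ddx21, a nucleolar helicase of ribosomal RNA transcription and processing, had 22.8, 28.6 and 28.0 TPM with SRT1720 and 15.6, 15.4 and 14.1 TPM with vehicle. Its groups lay apart, with means of 26.5 ± 3.19 TPM with SRT1720 and 15.0 ± 0.822 TPM with vehicle (SD, n = 3 each). The Ddx21 log2 fold change was 0.77 with a standard error of 0.17 (limma adjusted p = 0.261). Close to Ddx21 (chromosome 10, 62580251 to 62602281) on the same strand lies its close relative Ddx50 (62615895 to 62651218), the single member with all SRT1720 libraries below all vehicle libraries. Ddx50 had 1.81, 1.91 and 1.63 TPM with SRT1720 and 2.96, 2.61 and 1.98 TPM with vehicle, and its log2 fold change was −0.33 with a standard error of 0.15. These neighbouring genes therefore had values of opposite sign, a difference that was not tested.

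The upstream windows of Ddx21 (chr10:62602299-62602548, minus strand) and Ddx10 (chr9:53248113-53248362, minus strand), both RefSeq on GRCm38.p6, are set side by side as 2 ribosome biogenesis genes of like direction and unlike motif content. Capitals mark the ETS-type core, the GC box motif on either strand, and the CCAAT box. The Ddx21 window held no exact match to the 6 motifs searched. It did hold cggaag, the ETS-type core without its first base, on both strands.
Ddx21: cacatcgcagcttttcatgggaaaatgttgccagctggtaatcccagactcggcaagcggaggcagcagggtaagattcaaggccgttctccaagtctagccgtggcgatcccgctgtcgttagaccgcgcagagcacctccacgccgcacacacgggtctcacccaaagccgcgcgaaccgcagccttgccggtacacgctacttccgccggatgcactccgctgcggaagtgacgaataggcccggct
Ddx10: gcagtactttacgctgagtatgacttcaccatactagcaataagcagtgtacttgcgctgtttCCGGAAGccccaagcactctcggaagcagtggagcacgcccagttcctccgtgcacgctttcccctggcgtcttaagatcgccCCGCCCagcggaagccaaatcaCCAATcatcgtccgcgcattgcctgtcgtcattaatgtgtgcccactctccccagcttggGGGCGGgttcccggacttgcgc

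Ddx10, whose yeast counterpart Dbp4 works in early small-subunit processing, had 6.29, 6.97 and 7.77 TPM with SRT1720 and 4.82, 4.89 and 5.17 TPM with vehicle. The Ddx10 vehicle libraries were tightly grouped and lay below every SRT1720 library, with a log2 fold change of 0.42. Ddx51, which acts in large-subunit RNA maturation, averaged 2.57 ± 0.486 TPM with SRT1720 and 1.47 ± 0.505 TPM with vehicle. Its lowest SRT1720 library and its highest vehicle library both read 2.05 TPM at 3 digits, so its groups only just failed to overlap. Ddx27, another helicase of the large subunit, averaged 8.19 ± 0.935 TPM with SRT1720 and 5.80 ± 0.744 TPM with vehicle. Dhx37, which frees the small-subunit precursor from the U3 snoRNA, averaged 2.85 ± 0.317 TPM with SRT1720 and 1.81 ± 0.293 TPM with vehicle. Both genes had log2 fold changes close to the median of the role, 0.44 for Ddx27 and 0.46 for Dhx37.

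The last members of this role without overlap were Ddx54, Ddx55, Ddx49 and Dhx33, which are nucleolar helicases of ribosomal RNA processing. Ddx54 averaged 4.57 ± 0.326 TPM with SRT1720 and 3.39 ± 0.0957 TPM with vehicle. Dhx33 averaged 1.39 ± 0.0625 TPM with SRT1720 and 0.921 ± 0.0781 TPM with vehicle. Ddx55 averaged 1.36 ± 0.355 TPM with SRT1720 and 0.794 ± 0.18 TPM with vehicle. Ddx49 averaged 2.03 ± 0.393 TPM with SRT1720 and 1.45 ± 0.139 TPM with vehicle. In these 4 genes the log2 fold change lay between 0.30 for Ddx49 and 0.39 for Ddx55. The Ddx49 log2 fold change was 0.19 without SRT1720 2. The log2(TPM + 1) scale understates the change of low genes. With voom on recovered reads the 4 values lay between 0.43 for Ddx54 and 0.78 for Ddx55. Dhx33 and Ddx54 also had the smallest within-group SD of all tested members on the log2(TPM + 1) scale, 0.049 and 0.064. That scale narrows the spread of low genes, and Dhx33 averaged only 1.15 TPM over 6 libraries. Among the members that overlapped, Ddx18 had the largest log2 fold change, 0.56, and Ddx47 was the other one besides Ddx50 with a value below 0, −0.10.

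Of the 11 helicases of splicing and snRNP assembly, 10 were tested, and 9 of these had a log2 fold change above 0, with a median of 0.33 that was 0.16 without Vehicle 3. In 3 the SRT1720 libraries lay above all vehicle libraries, against 12.1% of all genes, and the rest overlapped. Dhx16, the counterpart of yeast Prp2, which remodels the spliceosome before the first step, had 4.68, 4.82 and 4.54 TPM with SRT1720 and 3.48, 2.85 and 3.32 TPM with vehicle. The Dhx16 libraries fell into 2 tight sets, with a log2 fold change of 0.43. Ddx42, a helicase bound to the U2 snRNP, averaged 9.07 ± 0.661 TPM with SRT1720 and 6.72 ± 0.921 TPM with vehicle. Ddx41, a spliceosomal helicase also described as a DNA sensor, averaged 10.0 ± 1.02 TPM with SRT1720 and 7.84 ± 0.501 TPM with vehicle.

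Dhx15, which takes spent spliceosomes apart and is the most abundant DEAH-box member on the deposited TPM scale, had 15.0, 12.7 and 11.2 TPM with SRT1720 and 10.8, 15.1 and 8.62 TPM with vehicle. Its groups overlapped, with the highest value in Vehicle 2, and the Dhx15 log2 fold change of 0.18 was 0.01 without Vehicle 3, 0.08 without SRT1720 1, 0.28 without SRT1720 3 and 0.38 without Vehicle 2. Ddx23, the counterpart of yeast Prp28, was the splicing member nearest to 0, at −0.01. Ddx20, a subunit of the SMN complex that builds snRNPs, lies on chromosome 3 and had 4.05, 3.72 and 1.91 TPM with SRT1720 and 2.21, 3.25 and 1.48 TPM with vehicle. Dhx36, also on chromosome 3, had 3.90, 2.96 and 1.46 TPM with SRT1720 and 3.10, 2.82 and 0.999 TPM with vehicle. Both genes were lowest in the third library of each group. Their within-group SDs on the log2(TPM + 1) scale, 0.412 for Ddx20 and 0.541 for Dhx36, were among the 5 largest of the family.

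The 8 members of mRNA export, translation and decay had a median log2 fold change of 0.20, which was 0.13 without SRT1720 1, and 6 lay above 0. Ddx3x, an X-linked helicase that helps ribosomes start on structured mRNAs, had 25.9, 34.3 and 28.6 TPM with SRT1720 and 21.8, 18.8 and 15.0 TPM with vehicle. Its groups did not overlap, with a log2 fold change of 0.66 and a standard error of 0.21 (limma adjusted p = 0.335). Its Y-linked counterpart Ddx3y had 0.77, 1.35 and 1.87 TPM with SRT1720 and 1.98, 0.837 and 2.20 TPM with vehicle. Ddx3y overlapped between groups, and the Ddx3y log2 fold change was −0.19, but 0.00 without SRT1720 1, −0.03 without Vehicle 3, −0.09 without Vehicle 1, −0.35 without SRT1720 3 and −0.43 without Vehicle 2.

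Ddx39, an mRNA export helicase whose human counterpart is called DDX39A, had 6.66, 7.57 and 6.26 TPM with SRT1720 and 4.16, 3.22 and 1.77 TPM with vehicle. No library of Ddx39 crossed over, and its log2 fold change of 0.99 with a standard error of 0.25 was the second largest of the family (limma adjusted p = 0.289). Its close relative Ddx39b, a subunit of the TREX export complex that also acts in splicing, averaged 12.4 ± 0.855 TPM with SRT1720, against 10.3 ± 2.13 TPM with vehicle, with overlap. Dhx29, which helps the ribosome scan structured leaders, averaged 4.80 ± 0.707 TPM with SRT1720 and 3.56 ± 0.332 TPM with vehicle, without overlap. Ddx6, a helicase of mRNA decay and P-bodies, was close to level, with 12.3 ± 1.51 TPM with SRT1720 and 11.9 ± 3.58 TPM with vehicle.

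Of the mitochondrial members, Ddx28, a helicase of mitochondrial ribosome assembly, averaged 3.20 ± 0.608 TPM with SRT1720 and 2.24 ± 0.347 TPM with vehicle without overlap. Dhx30, found in the same RNA granules, overlapped and had a log2 fold change of 0.16. In the last group, of germ cell, interferon and other helicases, 5 of 9 were tested, with a median log2 fold change of 0.18 that was 0.02 without SRT1720 1 and 0.28 without Vehicle 3. Ddx11, a DNA helicase of sister chromatid cohesion, averaged 4.50 ± 0.249 TPM with SRT1720 and 2.96 ± 0.541 TPM with vehicle. Ddx59 averaged 1.68 ± 0.158 TPM with SRT1720 and 1.25 ± 0.329 TPM with vehicle. Neither gene overlapped between groups, and the Ddx59 log2 fold change of 0.26 was 0.14 without Vehicle 2. Dhx57 had 2.01, 2.16 and 5.65 TPM with SRT1720 and 2.54, 2.06 and 7.46 TPM with vehicle. It was thus high in the third library of each group, and its within-group SD of 0.72 on the log2(TPM + 1) scale was the largest of the family.

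Ddx4, the germ cell helicase called Vasa, was below the limit of 1 TPM and rested on 9, 3 and 5 recovered reads with SRT1720 and 24, 61 and 15 with vehicle. Ddx25 and Ddx43, which are known from germ cells, and the interferon-induced Ddx60 were also low, with at most 6, 19 and 185 recovered reads in a library. No fold change is given for these genes.

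**Figure D4:**
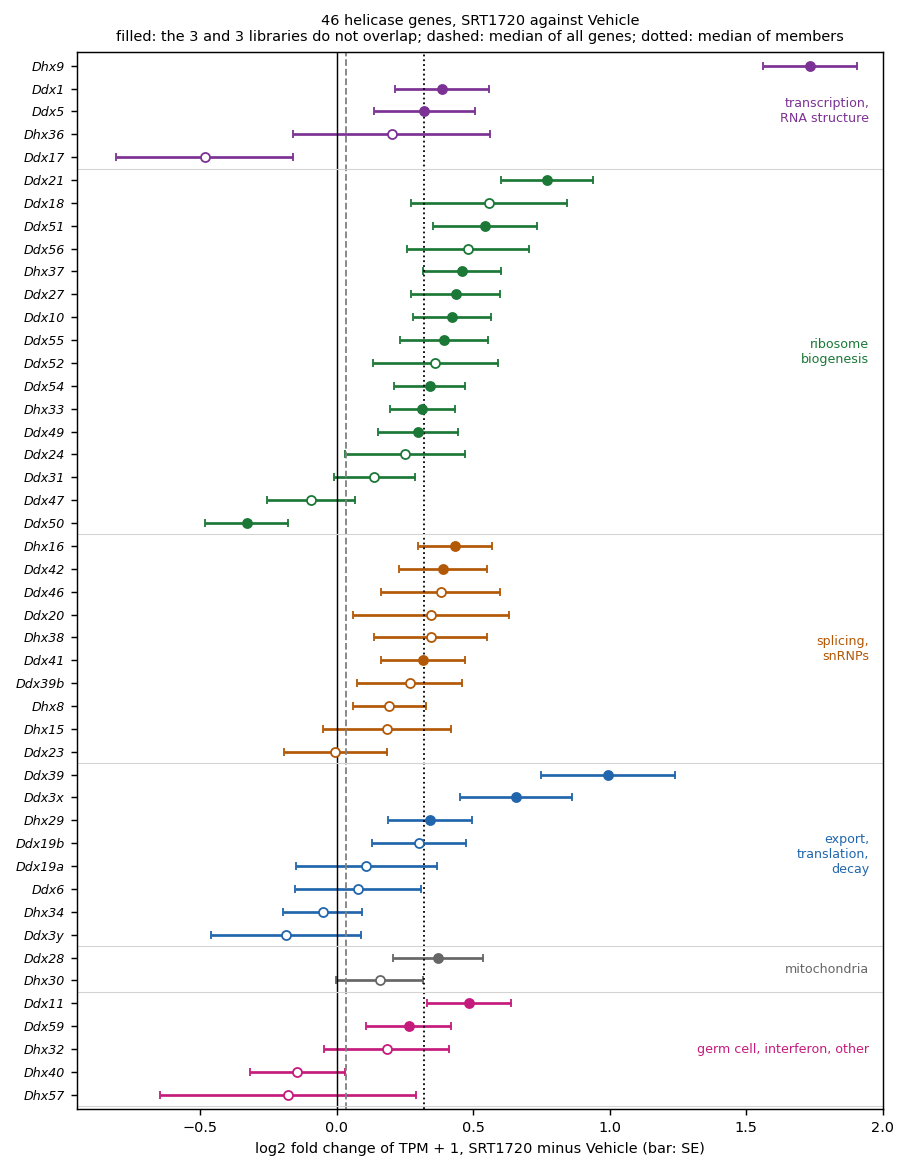
Log2 fold change of TPM + 1, SRT1720 minus vehicle (horizontal axis, bar: standard error of the limma fit), for the 46 tested helicase genes in rows, grouped and coloured by role. Filled points mark members whose 3 and 3 libraries do not overlap, the dashed line the median of all genes (0.04) and the dotted line the median of the members (0.32). Dhx9 stands apart at 1.73, and Ddx17 lies lowest at −0.48.

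On the log2(TPM + 1) scale the median within-group SD was 0.183 over the tested members and 0.249 over all genes tested. That scale narrows the spread of low genes, and the members were not matched to other genes by level. The members ranked differently by level under another length. By the deposited TPM, averaged over 6 libraries, the order began with Ddx17 (28.3 TPM), Ddx5 (28.2 TPM), Ddx3x (24.1 TPM), Ddx21 (20.8 TPM) and Dhx15 (12.2 TPM). The length behind the deposited values was 0.623 to 2.26 times the merged exon length in GENCODE M21, lowest for Ddx17 and highest for Dhx32. Rescaled as RPKM over merged exons, the order began with Ddx5 (126), Ddx3x (89.8), Ddx21 (59.6), Ddx39b (53.0) and Ddx17 (45.5), and Dhx9 stood at 23.5. The ratio of 1 gene's TPM between libraries does not depend on that length, but its fold change on the log2(TPM + 1) scale, its p and the limit of 1 TPM do. The Dhx9 log2 fold change, 1.73 on that scale, was 2.13 with voom on recovered reads. Of these neighbours by TPM, Ddx17 and Ddx5 differed by far less than the spread of Ddx17 within either group.

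**Figure D5:**
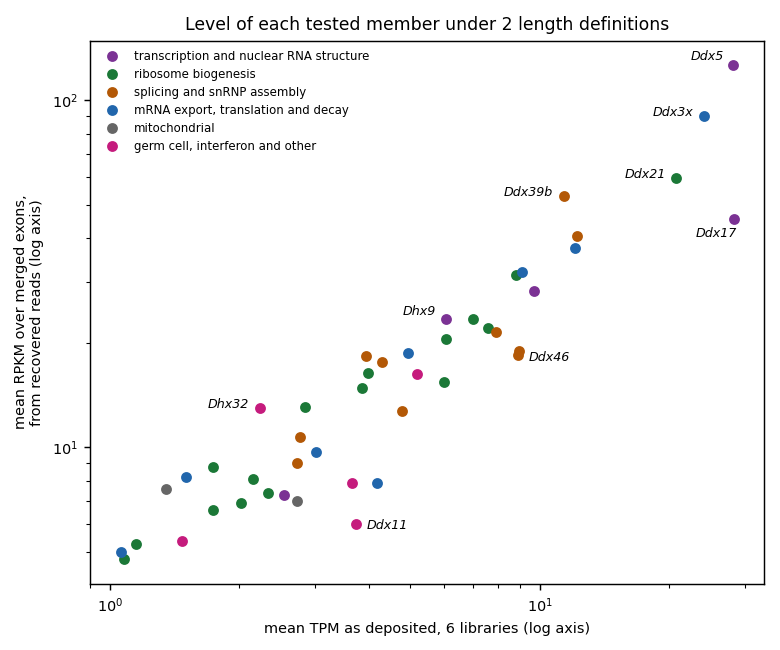
Mean level of each tested member over 6 libraries as deposited (TPM, horizontal log axis) and as RPKM over merged exons (vertical log axis), coloured by role. Ddx17 is highest on the horizontal axis (28.3 TPM) and Ddx5 on the vertical axis (126), and Dhx32 and Ddx11 lie off the main band on opposite sides.

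Several members shared sequence with another gene, so that reads could have been split between copies in the authors' counting. Of the 51 members, 13 had a transcript at least 95% identical over at least 200 bases to that of another gene, and 13 had exons overlapping another gene. Ddx18 matched the processed pseudogene Gm16433 at 99.294% over 1984 bases. The copy itself was listed at 14.9, 10.3 and 10.2 TPM with SRT1720, against 6.60, 11.2 and 5.69 TPM with vehicle, which was 1.08 to 1.15 times the level of Ddx18 in every library. Ddx5 likewise matched Gm12183 at 98.539% over 1848 bases, and the copy stood at 0.562 to 0.59 times Ddx5. Both pairs moved together across libraries in a nearly fixed ratio. The sum of Ddx5 and Gm12183 was 893 ± 20.3 RPM (recovered reads scaled to depth) with SRT1720 and 717 ± 125 RPM with vehicle. Ddx50 matched Gm8228 at 96.495% over 2197 bases, and their sum was 72.1 ± 6.43 RPM with SRT1720 and 101 ± 20.7 RPM with vehicle. Ddx39 overlaps Adgre5 by 895 exonic bases and Ddx49 overlaps Homer3 by 874, each on the opposite strand, and no source used here states whether counting used strand. The levels of Adgre5 and Homer3 were low, with means of 0.541 and 0.681 TPM. Dhx33 carries a repeated stretch found in many other genes.

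Motifs were counted in the 250 bases upstream of RefSeq starts, on both strands, for 57 windows of the 46 members that had one; Ddx11, Ddx23, Ddx39, Ddx6 and Dhx38 had none. The ETS-type core CCGGAAG occurred in 17 of 57 member windows (29.8%), in 15.3% of the 8115 windows of tested genes and in 6.90% of all 32817 windows. It was found in 10 of the 23 windows of members whose SRT1720 libraries all lay higher (43.5%), a set chosen by its values. Dhx9, Ddx10, Ddx5, Ddx1, Ddx49, Ddx54, Ddx55, Dhx16 and Dhx37 had this core, and so did Ddx50, which lay lower without overlap. The other members with it were Ddx17, Ddx39b, Dhx30, Dhx34 and Dhx36, whose groups overlapped, and Dhx35, which was not tested. The GC box GGGCGG occurred in 54.4% of member windows, 62.3% of windows of tested genes and 32.7% of all. CCAAT occurred in 42.1% of member windows, 36.2% of tested and 33.8% of all. The E-box CACGTG, the letters bound by MYC, occurred in 10.5%, 9.03% and 6.02% of the same 3 sets. TTCCCGC, an E2F-type motif, occurred in 7.02%, 7.63% and 3.82%, and CGCATGCG, an NRF1-type motif, in 7.02%, 3.52% and 1.54%. No motif searched contains another, though matches could overlap. Median GC was 60.0% in member windows, 61.2% in those of tested genes and 52.4% in all.

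Helicases outside the Ddx and Dhx names were looked at for comparison. Of 17 listed, 13 were tested, 10 lay above 0, against 54.8% of all genes, and the median log2 fold change was 0.14, or 0.08 without Vehicle 3. In 5 of them the SRT1720 libraries lay above all vehicle libraries and in 1 below, against 12.1% and 7.75% of all genes. The eIF4A genes, which encode DEAD-box proteins by sequence, stood on both sides. Eif4a1, the main translation initiation helicase, had 13.6, 18.9 and 14.0 TPM with SRT1720 and 13.2, 12.7 and 7.29 TPM with vehicle. Its relative Eif4a2 had 3.80, 4.46 and 3.77 TPM with SRT1720 and 6.17, 7.16 and 6.32 TPM with vehicle. The groups of Eif4a2 lay apart in the direction opposite to that of Eif4a1, with a log2 fold change of −0.59 and a standard error of 0.14 (limma adjusted p = 0.284). Eif4a3, the core of the exon junction complex, averaged 13.2 ± 1.47 TPM with SRT1720 and 9.93 ± 1.29 TPM with vehicle. Skiv2l, which feeds mRNA to the cytoplasmic exosome, averaged 2.23 ± 0.413 TPM with SRT1720 and 1.11 ± 0.141 TPM with vehicle. Mtrex, its nuclear counterpart, and Ythdc2, a reader of methylated RNA, also lay higher without overlap, by only 0.14 and 0.17 on the log2 scale. Without Vehicle 3 the Mtrex log2 fold change was 0.06, and the Eif4a1 log2 fold change, 0.48 over all libraries, was 0.23.

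Among the G-patch cofactors of DEAH-box helicases, 15 of 19 were tested, 14 lay above 0, against 54.8% of all genes, and the median was 0.31. The 6 without overlap all stood higher with SRT1720, and 5 had an unadjusted p under 0.05. Over all genes these shares, at the higher level, were 12.1% and 7.86%. Pinx1, a nucleolar protein and inhibitor of telomerase, had 5.60, 5.10 and 7.09 TPM with SRT1720 and 2.05, 2.65 and 3.85 TPM with vehicle. On the log2(TPM + 1) scale the Pinx1 log2 fold change of 0.86 was the largest of the list. With voom on recovered reads it was 1.09, below the 1.35 of Gpatch4. Gpatch4, a nucleolar protein, had 2.47, 2.98 and 1.22 TPM with SRT1720 and 1.18, 1.02 and 0.449 TPM with vehicle, so its groups were separated by a narrow gap. The splicing factors Rbm10, Rbm17 and Cherp had log2 fold changes of 0.63, 0.31 and 0.28, and Gpatch11 had 0.38. The Rbm17 log2 fold change was 0.20 without Vehicle 3.

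All 17 listed cofactors of DEAD-box helicases were tested, 12 lay above 0, against 54.8% of all genes, and the median was 0.17. That median was 0.08 without Vehicle 3 and 0.09 without SRT1720 1. Here 5 genes lay higher and 3 lower without overlap, against 12.1% and 7.75% of all genes, and the 3 lower ones belong to cap-dependent translation. Eif4b, which stimulates eIF4A, had 34.8, 45.8 and 42.9 TPM with SRT1720 and 74.4, 58.3 and 81.3 TPM with vehicle, a log2 fold change of −0.77 with a standard error of 0.20. Pdcd4, which inhibits eIF4A, had 2.83, 5.33 and 2.27 TPM with SRT1720 and 7.91, 5.83 and 8.28 TPM with vehicle, a log2 fold change of −0.94 with a standard error of 0.28. A stimulator and an inhibitor of the same enzyme thus both stood lower with SRT1720. Ctif, an MIF4G protein of cap-binding translation, had a log2 fold change of −0.45. On the higher side, Eif4g1 and Eif4g2, scaffolds of translation initiation, had 0.49 and 0.50, Nom1, a nucleolar MIF4G protein, had 0.42, Magoh, of the exon junction complex, had 0.35, and Nup214, the docking site of the Ddx19 proteins at the nuclear pore, had 0.26. The Eif4g2 log2 fold change was 0.31 without Vehicle 3. By limma, 0 genes of these 3 lists passed the adjusted threshold.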

How the data were processed

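Bulk RNA-seq was measured in 3 SRT1720 and 3 vehicle libraries, grouped by the sample titles. The authors deposited 1 table of TPM values per gene, with 51912 Ensembl IDs, and no column was left unused. The submitters' processing notes name STAR 2.6.0 and the build GRCm38. The sources used here do not give the counting program, the gene lengths or the handling of reads with several matches. The columns summed to 161231 to 171577, and names and positions came from GENCODE M21 on GRCm38.

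Whole reads were recovered from the deposited values, within 0.001 of a whole read, for 27711 of 27713 IDs above 0. At the annotated length, 10814 of 11236 genes with 1 transcript gave whole reads. A single read on 1 kb stood for 0.01697 to 0.021212 TPM. Tested members rested on 172 to 17359 recovered reads per library. 

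The 9287 genes that averaged at least 1 TPM were tested on log2(TPM + 1) with limma 3.58.1 (R 4.3.3; linear model and moderated variance with trend), with Benjamini-Hochberg adjustment over all of them and a threshold of 0.05. This scale understates the change of low genes. The fit and the read recovery were tested on simulated data. Near-identical transcripts were searched with blastn 2.17.0+. Python 3.11.15, pandas 2.3.3, numpy 2.4.6, scipy 1.17.1 and matplotlib 3.10.9 were used. Squared differences between libraries of 1 group were, at the median gene, 39.6 to 91.7 times those of counting noise, so none was a duplicate. Named genes were the tested members without overlap between groups, the 5 members highest by mean TPM, Ddx3x and Ddx3y, and the genes without overlap in each list of related genes; a few others are named after their values were seen. The members and the lists were chosen with earlier results of these data known. Alternatives covered the pseudocount, the filter, the scaling, library weights, voom on recovered reads, a replicate block, and leaving out libraries.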

Additional observations from a re-analysis of the deposited data

How the results depend on the processing

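Over 17 alternative settings, 0 members passed the adjusted threshold. Dhx9 kept a log2 fold change of 1.66 to 2.13, with adjusted p of 0.0513 (library weights) to 0.67 (without SRT1720 2). The main count of members above 0 was 38 of 46, and it was 17 of 19 at a mean of at least 5 TPM, where fewer genes were tested. Members at an unadjusted p under 0.05 numbered 14 in the main test, 24 with library weights, 6 at a mean of at least 5 TPM, 4 without SRT1720 3 and Vehicle 3, and 3 to 14 when leaving out 1 library in turn. The share of all genes at an unadjusted p under 0.05 was 12.4% in the main test, 22.1% with library weights, 13.9% at a mean of at least 5 TPM, 7.34% without SRT1720 3 and Vehicle 3, and 5.63% without SRT1720 2. The median log2 fold change of the members was 0.32, against 0.38 at a mean of at least 5 TPM, 0.42 with a pseudocount of 0.1, 0.37 with 0.5 and 0.42 with voom. Over the 17 alternatives it ran from 0.276 to 0.422, and from 0.291 to 0.357 when leaving out 1 library. Members without overlap numbered 22, against 9 at a mean of at least 5 TPM, 34 without SRT1720 1 and Vehicle 2, and 23 to 31 when leaving out 1 library, where fewer libraries overlap by construction. The same shares over all genes were 19.9%, 22.6%, 44.0% and 24.0% to 32.9%. With quantile normalization the split over all genes was 969 above and 859 below, and that of the members 19 and 1. The germ cell, interferon and other list had a median of 0.18, which turned to −0.14 at a mean of at least 5 TPM and to −0.01 with no filter, where its membership differs. The median of the DEAD-box cofactors, 0.17, was 0.08 at a mean of at least 5 TPM. Of the values for single genes and lists, 856 were labelled the same, 19 moved and 2 reversed. A list median was the same if it stayed within its spread, and a single gene if its sign and its call held. As no gene was called in any setting, the label of a single gene records only its sign, not its size. Ddx17 thus counted as the same at −0.02 without SRT1720 1 and Vehicle 2, against −0.48 in the main test.

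Replicate numbers did not pair the libraries: the deviations of same-numbered libraries correlated at −0.197, −0.262 and 0.788 for numbers 1, 2 and 3. Only the libraries numbered 3 correlated best with their own number: SRT1720 1 correlated at 0.721 with Vehicle 2, and SRT1720 2 at 0.676 with Vehicle 1. This match comes from the values, not from the labels, and no test was built on it. With a replicate block, 9 members had an unadjusted p under 0.05, against 12.2% of all genes, and the adjusted p of Dhx9 was 0.392. As the numbers do not match the libraries that vary together, this fit does not describe a paired design. Each group had only 3 libraries, and squared differences between libraries of 1 group were 39.6 to 91.7 times those of counting noise. The simulated test of the fit used each gene's within-group spread, but the share of planted changes it recovered is not given here.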
